A study of Mus musculus with 24 samples.

Results

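Early maturation is taken here as the day between Day 2 and Day 3 after induction of C2C12 cells, and the members are the 3 arrays labelled Day 3 and the 3 labelled Day 2, 6 of the 24 arrays of the series. C2C12 is a line of mouse skeletal myoblasts. In the whole series, RNA was measured on Affymetrix mouse arrays at 8 time points between Day -1 and Day 5, with 3 arrays each. All groups are the same line, held in DMEM with high glucose and 10% FBS until they were confluent and then in a reduced serum concentration, which the labels give as 2% v/v, with the medium changed every 2 days. The sources disagree here, as the methods of the study name a different concentration. Day 3 and Day 2 cultures therefore differ in 1 further day in that medium, and the sources used here do not say on which days the medium was changed. No animal, transgene or drug is involved, and as a single line the cells stand for 1 origin only. The question put to the data was which genes were higher or lower on Day 3 than on Day 2.

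When serum is reduced, C2C12 myoblasts leave the cell cycle, switch on the myogenic regulators and fuse into myotubes, which then build sarcomeres, the membrane system that couples excitation to calcium release, and the fuel stores of a muscle fibre. Part of each culture does not fuse and stays mononucleate. Genes of mitosis are controlled together, through promoter elements bound by the DREAM complex and by the factor NF-Y, and are shut off as cells leave the cycle. Many proteins of the contractile apparatus exist in embryonic, fast and slow forms that are encoded by separate genes.

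Each array gives a probe set's intensity, a brightness with no unit that the authors normalized with GC-RMA and returned to a linear scale. A probe set was tested if its mean intensity was at least 100 on either day, which left 12389 of 45037 (27.5%). At the edge of this filter, 383 probe sets had a higher mean between 100 and 110, and 400 between 90 and 100 were left out. Log2 intensities were compared with limma's moderated t, p-values were adjusted over all probe sets tested (Benjamini-Hochberg), and 0.05 was the threshold for the adjusted p. A log2 change is always Day 3 minus Day 2. The smallest p that an exact permutation of 3 arrays against 3 allows is 0.1, and the tests of single genes are therefore those of limma's fit across all probe sets.

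On Day 3, 85 probe sets were higher (0.686% of those tested) and 68 were lower (0.549%), together 1.23%, and 1954 had an unadjusted p under 0.05. The rises spanned 1.48-fold to 6.82-fold with a median of 2.00-fold, and the falls 1.58-fold to 3.37-fold with a median of 2.06-fold. By gene, with each gene represented by its probe set of highest absolute moderated t, 67 of 7246 were higher (0.925%) and 57 were lower (0.787%), together 1.71%. At an unadjusted p under 0.05, 882 genes were higher (12.2%) and 569 lower (7.85%), and the unadjusted counts of the lists are to be read against these shares. This choice of probe set leans towards probe sets with larger changes. The median log2 change over all genes tested was 0.05. Arrays of Day 3 and Day 2 did not overlap for 27.4% of the genes tested and for all 124 that passed. Where a gene that passed is described below as not overlapping, this is therefore no further support.

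These counts depended on single arrays. Day 2 replicate 2 stood apart, with a Pearson r of 0.96 to the other Day 2 arrays over log2 values against 0.99 between those, while Day 3 arrays correlated at 0.98 to 0.99. Without it, 510 probe sets were higher and 603 lower on Day 3, and 150 of the 153 were among them. By gene, 399 of 7254 tested were then higher (5.50%) and 445 lower (6.13%), which is the background for the list counts in that fit. Without Day 3 replicate 2 none passed (1233 at an unadjusted p under 0.05). Leaving out Day 3 replicate 1 left 4 higher and 0 lower (1759 unadjusted), Day 3 replicate 3 left 2 and 0 (1201), Day 2 replicate 3 left 9 and 0 (1382), and Day 2 replicate 1 left 41 and 36 (1579). All 124 genes that passed kept the sign of their change in each of these 6 fits in which they were tested. Their arrays did not overlap between the days, so leaving out an array could not reverse a sign. Igf1 alone passed in 5 of the 6 fits. The calls that follow are those of the fit to all 6 arrays, and for each list the count without Day 2 replicate 2 is given as well. Of the 6 fits, that one had the highest counts of probe sets. In every list the lowest count over the 6 fits was 0 for rises and 0 for falls.

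**Figure D1:**
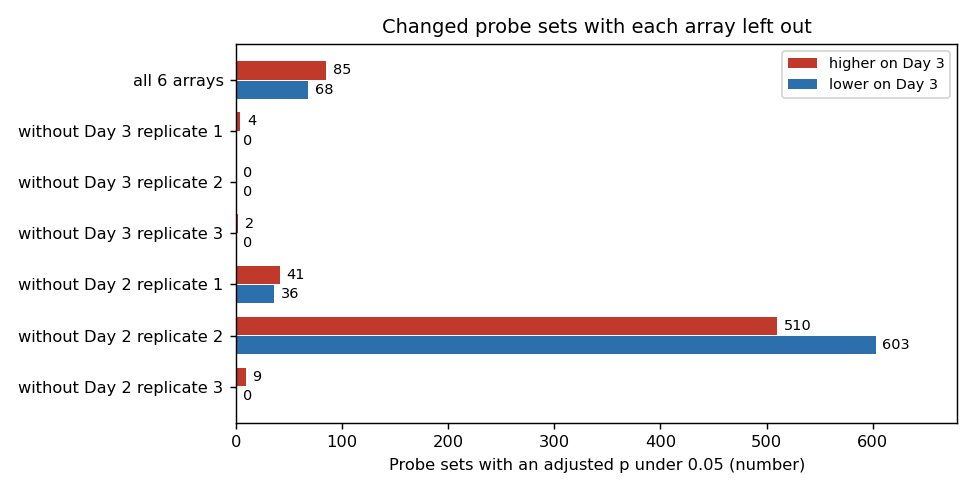
Number of probe sets with an adjusted p under 0.05 (x axis) in the fit to all 6 arrays and with each array left out in turn (rows), for probe sets higher on Day 3 (red) and lower on Day 3 (blue). The count was 510 and 603 without Day 2 replicate 2 and 0 in both directions without Day 3 replicate 2.

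Among the gene lists, mitosis had the most members past the threshold, all of them lower on Day 3. Of 39 measured, 15 fell and 0 rose on Day 3 in limma (38 lower and 0 higher at an unadjusted p under 0.05), their median log2 change was -1.03 against 0.05 for all genes, and 38 had a lower mean on Day 3. Without Day 2 replicate 2, 37 of 40 measured fell. With the probe set of highest mean in place of that of highest t, 13 fell. Of the 57 genes that fell in all, 19 belonged to mitosis or DNA replication. In RNA from a whole culture, fewer cycling cells and less of these RNAs per cell cannot be told apart.

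Several of these genes carry the elements named above in their promoters, and the sequences of 3 are shown to make them visible, Cdc20 having been chosen after its values were seen. Each is the 250 bases before a start in RefSeq, build GRCm38.p6, written 5′ to 3′ on the strand of the gene. Capitals mark the cell cycle homology region (CHR, TTTGAA) and the CCAAT box (CCAAT), searched on both strands and so also read as TTCAAA and ATTGG. Cdc20 lies on the minus strand at chr4:118437344-118437593, Kif22 on the minus strand at chr7:127042421-127042670 and Ncapg on the plus strand at chr5:45669675-45669924. For Kif22 and Ncapg the gene as annotated begins inside this window, at 127042467 and 45669891. The last CHR shown for Kif22 and the CHR of Ncapg therefore lie within the gene.
Cdc20: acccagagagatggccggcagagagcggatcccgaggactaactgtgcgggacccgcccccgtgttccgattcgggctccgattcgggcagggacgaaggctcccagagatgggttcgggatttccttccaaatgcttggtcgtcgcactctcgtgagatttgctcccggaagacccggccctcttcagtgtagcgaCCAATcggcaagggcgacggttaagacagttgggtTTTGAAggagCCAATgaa
Kif22: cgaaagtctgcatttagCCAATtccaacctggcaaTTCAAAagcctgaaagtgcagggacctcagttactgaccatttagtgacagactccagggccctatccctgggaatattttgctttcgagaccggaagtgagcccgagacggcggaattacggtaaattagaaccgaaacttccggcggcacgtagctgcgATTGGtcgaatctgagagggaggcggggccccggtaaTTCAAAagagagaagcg
Ncapg: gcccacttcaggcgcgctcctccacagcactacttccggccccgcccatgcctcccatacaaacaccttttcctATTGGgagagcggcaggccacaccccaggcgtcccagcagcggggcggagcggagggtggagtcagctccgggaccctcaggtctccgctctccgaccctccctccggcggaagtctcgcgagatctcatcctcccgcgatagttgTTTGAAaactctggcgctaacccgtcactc
Each of the 3 holds at least 1 match of both elements, and none of these matches overlap.

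Across the list, 15 of 34 mitosis genes with a promoter in the table held a CHR (44.1%) and 26 held a CCAAT box (76.5%). Among all genes tested the shares were 12.2% and 40.2%, and among all 27025 genes with a promoter 18.3% and 37.5%. Within the list, 6 of 14 genes that fell held a CHR, and so did 9 of 20 that did not pass. Both elements together, as in the 3 promoters shown, were held by 4 of those 14 (28.6%) and 9 of those 20 (45.0%). Among genes tested the share with both was 5.69%. These shares are descriptions of letters in a fixed window, not matched for base composition, and a match is no evidence that a factor was bound.

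Bub1b (ID 12236, the number of the gene in Entrez Gene), a kinase of the spindle checkpoint, had the largest fall among genes that passed. Its intensity was 31.0, 38.9 and 28.8 on Day 3, against 102, 88.4 and 146 on Day 2, so every Day 3 array was below every Day 2 array (log2 change -1.75, SE 0.20, adjusted p = 0.0194). Kif22 (ID 110033), a kinesin that moves chromosome arms, read 38.3, 38.2 and 39.5 on Day 3, against 93.1, 84.0 and 152 on Day 2 (log2 change -1.46, SE 0.21, adjusted p = 0.0314). The 3 Day 3 arrays were almost equal and the spread lay in Day 2, where replicate 3 was highest. The other probe set of Kif22 had a log2 change of -0.63 and did not pass. Aurka (ID 20878), the Aurora A kinase of centrosomes and spindle, gave 41.0, 48.0 and 46.6 on Day 3, against 88.5, 105 and 168 on Day 2 (log2 change -1.36, SE 0.23, adjusted p = 0.0409), again with Day 2 replicate 3 highest and no overlap.

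The parts of the mitotic machinery that fell were spread over its stages. Ncapg (ID 54392), a subunit of the condensin complex that compacts chromosomes, was at 69.4, 90.9 and 79.4 on Day 3, against 179, 155 and 251 on Day 2 (log2 change -1.27, SE 0.19, adjusted p = 0.0337). Spc25 (ID 66442), of the kinetochore complex that holds microtubules, read 81.4, 64.8 and 67.3 on Day 3, against 127, 189.9 and 191 on Day 2 (log2 change -1.23, SE 0.18, adjusted p = 0.0327). Nusap1 (ID 108907), which binds spindle microtubules, was 142, 133 and 117 on Day 3, against 281, 269 and 348 on Day 2 (log2 change -1.19, SE 0.14, adjusted p = 0.0194). None of the 3 overlapped between the days, and in each of them Day 2 replicate 3 was highest.

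Kif23 (ID 71819), the kinesin of the central spindle used in cytokinesis, read 56.3, 71.8 and 64.7 on Day 3, against 127, 138 and 146 on Day 2 (log2 change -1.10, SE 0.13, adjusted p = 0.0194). Cdc20 (ID 107995), the activator of the anaphase-promoting complex, was still at a higher intensity, 382, 399.8 and 369.6 on Day 3, against 562, 681 and 691 on Day 2 (log2 change -0.74, SE 0.12, adjusted p = 0.0391). Its probe set is one that the manufacturer marks as open to cross-hybridization, and its other probe set had a log2 change of -0.79 with an adjusted p of 0.0765. The remaining falls of the list were Bub1, Ncaph, Pbk, Ncapg2, Cdca8, Kif2c and Prc1, with log2 changes between -1.20 and -0.90. Bub3, a protein of the same checkpoint, was the single member with a higher mean on Day 3 (log2 change 0.23, adjusted p = 0.416).

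Outside the list, Aspm (ID 12316), a spindle pole protein, read 39.9, 50.2 and 34.1 on Day 3, against 124, 86.0 and 166 on Day 2 (log2 change -1.56, SE 0.25, adjusted p = 0.0373). Mis18a (ID 66578), which takes part in loading the centromeric histone, gave 58.8, 42.6 and 40.2 on Day 3, against 86.5, 115 and 151 on Day 2 (log2 change -1.30, SE 0.23, adjusted p = 0.0455). Both were among the 10 largest falls, with all Day 3 arrays lowest. Cell cycle genes singled out after their values were seen fell as well. They were the cyclin gene Ccna2 (log2 change -1.09, adjusted p = 0.0373), the ubiquitin ligase gene Skp2 (log2 change -0.81, adjusted p = 0.0296), whose product targets a CDK inhibitor, and E2f8 (log2 change -1.02, adjusted p = 0.0194), a repressor of E2F target genes.

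**Figure D2:**
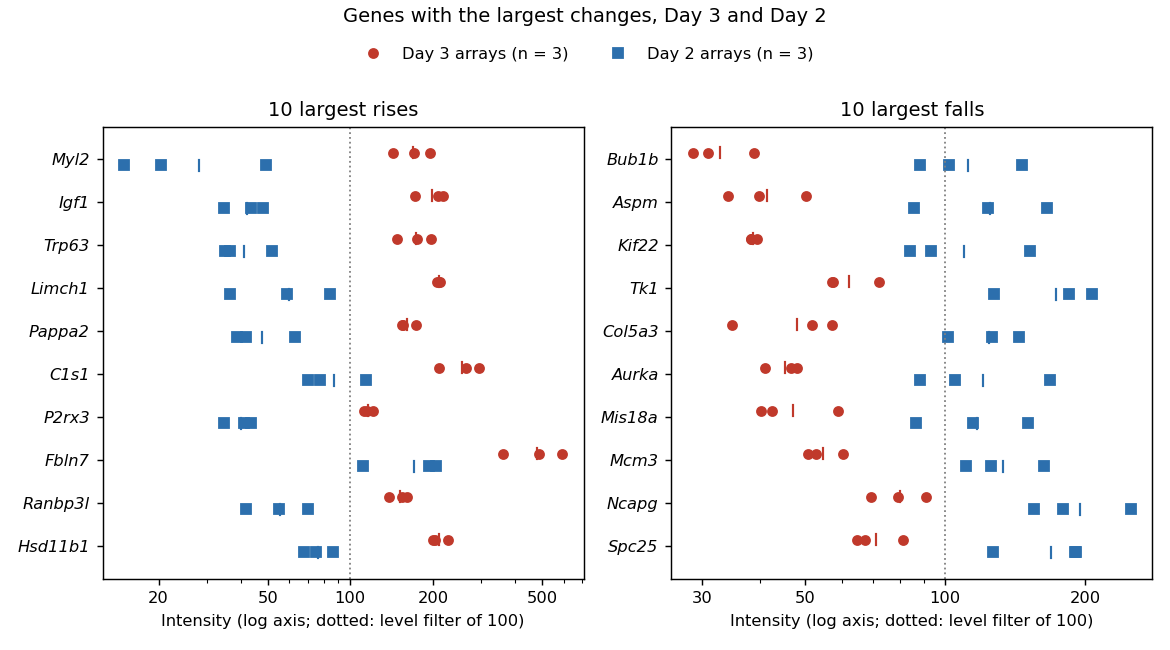
Intensity on each array (x axis, log scale) for the 10 genes with the largest rise and the 10 with the largest fall among genes that passed, with Day 3 arrays as red circles, Day 2 arrays as blue squares and vertical strokes at the means of 3. The 20 were chosen among genes whose arrays did not overlap between the days, and all but Fbln7 had a mean below 100 on 1 of the days.

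Of 32 genes of DNA replication measured, 4 fell and 0 rose in limma (22 lower and 0 higher at an unadjusted p under 0.05), the median log2 change was -0.66, and all 32 had a lower mean on Day 3. The number that fell was 17 without Day 2 replicate 2. Tk1 (ID 21877), the thymidine kinase of the salvage pathway, was at 57.5, 72.2 and 57.1 on Day 3, against 127, 207 and 185 on Day 2 (log2 change -1.45, SE 0.20, adjusted p = 0.028). Mcm3 (ID 17215), a subunit of the replicative helicase, read 50.8, 60.4 and 52.9 on Day 3, against 126, 111 and 163 on Day 2 (log2 change -1.27, SE 0.16, adjusted p = 0.0261). All 4 probe sets of Mcm3 were lower on Day 3, by 0.64 to 1.30 on the log2 scale, and 2 of them passed.

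The other members that fell were Lig1 (log2 change -1.12, adjusted p = 0.0326), which joins the fragments of the lagging strand, and the helicase gene Mcm6 (log2 change -0.66, adjusted p = 0.0365). Mcm6 had much the highest intensity of the 4, 908, 885 and 872 on Day 3, against 1392, 1319.7 and 1512 on Day 2, with each day within a narrow band. Rrm2 (log2 change -0.46, adjusted p = 0.094) and Pcna (log2 change -0.34, adjusted p = 0.272), a ribonucleotide reductase subunit and the sliding clamp of the polymerase, did not pass. Of the CDK inhibitors, pocket proteins and G1 cyclins, 0 of 16 passed in limma (4 higher and 3 lower unadjusted), and the median log2 change was close to 0. Of them, 3 rose and 2 fell without Day 2 replicate 2. The lowest adjusted p there belonged to Rbl1, the pocket protein p107 (log2 change -1.04, adjusted p = 0.0802).

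Among the contractile genes few passed, although nearly all means were higher on Day 3. Of 10 myosin genes measured, 2 rose and 0 fell in limma (7 higher and 0 lower at an unadjusted p under 0.05), with a median log2 change of 0.59, and 3 rose without Day 2 replicate 2. Both that passed encode slow forms. Myl2 (ID 17906), the regulatory light chain of slow and ventricular muscle, had the largest rise among genes that passed. It read 171, 143 and 196 on Day 3, against 15.0, 20.5 and 49.1 on Day 2 (log2 change 2.77, SE 0.39, adjusted p = 0.0291), so Day 2 replicate 3 was above the other Day 2 arrays but far below Day 3. Myh7 (ID 140781), the slow heavy chain, was at 953, 1493 and 1409.9 on Day 3, against 642, 368 and 431 on Day 2 (log2 change 1.43, SE 0.24, adjusted p = 0.0433).

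The 8 myosin genes that did not pass included embryonic, perinatal and fast forms. Among the 8 were Myh8 (log2 change 1.10, adjusted p = 0.0757), Myh1 (log2 change 0.84, adjusted p = 0.164), Myl4 (log2 change 0.27, adjusted p = 0.275) and Myh3 (log2 change 0.19, adjusted p = 0.604). Myh3, the embryonic heavy chain, was 12624 ± 1385 on Day 3 and 11097 ± 1617 on Day 2 (SD, n = 3 each) and its arrays overlapped between the days. Myh7 and Myl2 are also used in heart muscle, and the heart markers were near background, with a summed intensity of 45.3 to 47.7 on Day 3 and 43.7 to 46.9 on Day 2 over 8 genes, none of them at 100.

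Of 16 genes of actin, troponin and tropomyosin, 1 rose and 0 fell in limma (11 higher and 1 lower unadjusted), with a median of 0.41, and 8 rose without Day 2 replicate 2. Tpm3 (ID 59069), which encodes slow tropomyosin and non-muscle forms, was 250.2, 252 and 273 on Day 3, against 123, 142 and 136 on Day 2 (log2 change 0.95, SE 0.11, adjusted p = 0.0194). Its 5 probe sets did not move together. Another passed as higher, and the brightest, at 3512 on Day 3 and 4198 on Day 2, had a log2 change of -0.26 (adjusted p = 0.254). The rise thus belongs to probe sets and not to the gene as a whole.

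Of 22 genes of the Z-disc and M-band, 1 rose and 0 fell in limma (16 higher and 0 lower unadjusted), the median was 0.46, and 9 rose without Day 2 replicate 2. Cap2 (ID 67252), an actin-binding protein found at the Z-disc, was at 339, 366 and 415 on Day 3, against 207, 167 and 192 on Day 2 (log2 change 0.99, SE 0.13, adjusted p = 0.0264), and both its probe sets passed. Titin, the elastic filament of the sarcomere, fell short of the threshold for Ttn (log2 change 1.04, SE 0.20, adjusted p = 0.0576), although its arrays, 158, 242 and 209 on Day 3, against 122, 85.7 and 88.4 on Day 2, did not overlap. These values are those of a dim probe set with the largest change of 5. The 5 had log2 changes of 0.51 to 1.04, and none passed. The brightest read 2791 ± 582 on Day 3 and 1942 ± 329 on Day 2 (SD, n = 3 each). Trim63 and Trim54 encode MuRF ubiquitin ligases of the sarcomere. Trim63, of a list of 17 FOXO factors and atrophy genes in which no other member passed (3 rose and 0 fell without Day 2 replicate 2), was 388, 404 and 410.3 on Day 3, against 254, 267 and 238 on Day 2 (log2 change 0.67, SE 0.10, adjusted p = 0.0337). Trim54, in no list and chosen after its values were seen, was 903, 838 and 885 on Day 3, against 519, 533 and 452 on Day 2 (log2 change 0.81, SE 0.11, adjusted p = 0.0282).

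In calcium handling, 1 of 19 genes rose and 0 fell in limma (10 higher and 0 lower unadjusted), with a median of 0.33 and all 19 means higher on Day 3, and 7 rose without Day 2 replicate 2. Cacna1s (ID 12292), the voltage sensor of excitation-contraction coupling in the transverse tubule, was 1129, 1493 and 1453 on Day 3, against 797, 637 and 626 on Day 2 (log2 change 0.98, SE 0.15, adjusted p = 0.037). Ryr1, the release channel it works with, gave 1803, 2648 and 2441 on Day 3, against 1700.0, 1266 and 1427 on Day 2, without overlap but short of the threshold (log2 change 0.64, SE 0.18, adjusted p = 0.135). Casq1 (log2 change 0.90, adjusted p = 0.0755) and Cacnb1 (log2 change 0.80, adjusted p = 0.0634), a calcium store protein and a channel subunit, were of like size.

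The stores and carriers of a muscle fibre gave 2 rises and 1 fall among 13 genes of energy buffering and glycogen (median 0.33), and 5 rises and 2 falls without Day 2 replicate 2. Mb (ID 17189), myoglobin, read 1633, 1724 and 2125 on Day 3, against 819, 1001 and 841 on Day 2 (log2 change 1.04, SE 0.14, adjusted p = 0.0282). Pygm (ID 19309), the muscle glycogen phosphorylase, was at 174, 217 and 247 on Day 3, against 123, 122 and 111 on Day 2 (log2 change 0.83, SE 0.15, adjusted p = 0.0458). Ckb (ID 12709), the brain form of creatine kinase, moved the other way, at 62.1, 56.8 and 51.8 on Day 3, against 108, 144 and 97.6 on Day 2 (log2 change -1.02, SE 0.16, adjusted p = 0.0373), while Ckm, the muscle form, overlapped between the days at 1051 ± 192 on Day 3 and 1205 ± 211 on Day 2 (SD, n = 3 each). Oxidative phosphorylation (0 of 38 in limma, 2 higher and 0 lower unadjusted, median 0.03), the citrate cycle and fatty acid oxidation (0 of 30, 0 and 1 unadjusted, median 0.08) and glycolysis (0 of 13, 2 and 3 unadjusted, median -0.12) had no member past the threshold. Without Day 2 replicate 2, 3 genes of oxidative phosphorylation and 1 of the citrate cycle list rose, and 1 of glycolysis fell.

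Dysf (ID 26903), dysferlin, which reseals the muscle membrane, was the member of the 15 fusion and adhesion genes that rose, with 181, 221 and 233 on Day 3, against 129, 90.0 and 101 on Day 2 (log2 change 1.00, SE 0.16, adjusted p = 0.0409). The list's median was 0.11, and 1 rose and 1 fell without Day 2 replicate 2. The fusion proteins Mymk (log2 change 0.33, adjusted p = 0.284) and Mymx (log2 change 0.03, adjusted p = 0.96) did not pass, and Mymk was 4102 ± 333 on Day 3 and 3271 ± 459 on Day 2 (SD, n = 3 each). No receptor or junction gene passed in limma (0 of 9, with 3 higher and 0 lower unadjusted, median 0.34), and Chrna1, the receptor's alpha subunit, was at 6684, 6787 and 7847 on Day 3, against 6529, 6295 and 6332 on Day 2 (log2 change 0.15, adjusted p = 0.574). None of 17 myogenic regulators passed in limma either (7 higher and 1 lower unadjusted, median 0.26). Myog was 9948 ± 725 on Day 3 and 8322 ± 407 on Day 2, and Myod1, whose arrays overlapped, was 1167 ± 70.6 on Day 3 and 1024 ± 103 on Day 2 (SD, n = 3 each). Without Day 2 replicate 2, 3 receptor or junction genes rose, and 3 regulators rose and 1 fell.

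**Figure D3:**
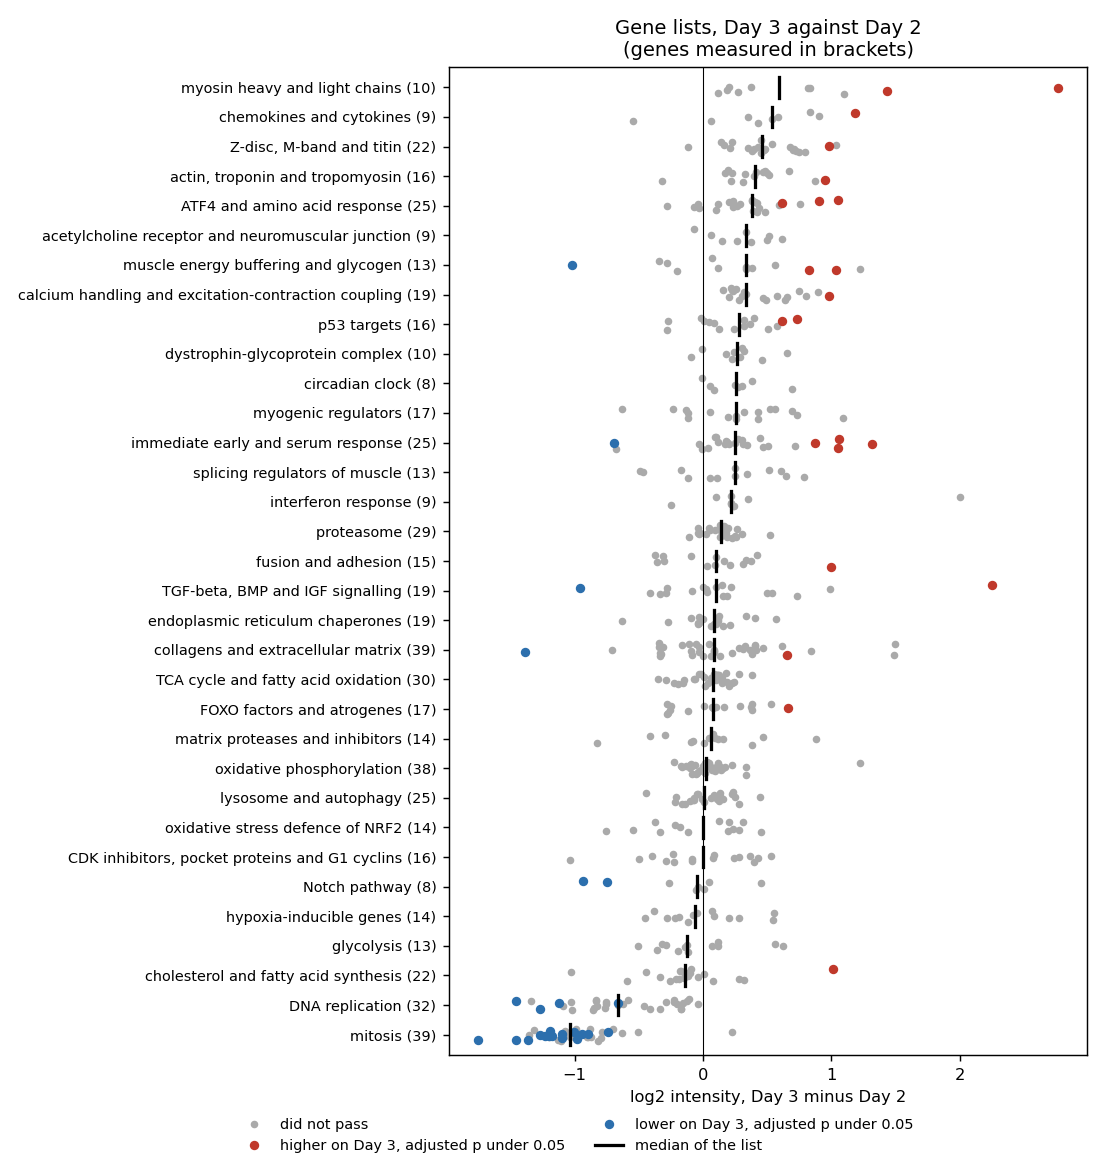
Log2 intensity on Day 3 minus Day 2 (x axis) for every measured gene of each list (rows), in red where it rose, in blue where it fell and in grey where it did not pass, with a black stroke at the median of the list. The medians of mitosis (-1.03) and DNA replication (-0.66) lie farthest to the left and that of the myosin genes (0.59) farthest to the right.

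The growth factor Igf1 and 2 proteins that govern its supply to receptors changed in the same interval. Igf1 (ID 16000), which promotes myotube growth, read 218, 209 and 172 on Day 3, against 48.0, 43.3 and 34.8 on Day 2 and had the lowest adjusted p of all genes (log2 change 2.25, SE 0.16, adjusted p = 0.00838). Its second probe set had a log2 change of 3.16 but a wide spread (SE 0.89, adjusted p = 0.144). Pappa2 (ID 23850), a protease that releases IGF from binding proteins, was 173, 156 and 154 on Day 3, against 62.9, 38.8 and 41.6 on Day 2 (log2 change 1.79, SE 0.19, adjusted p = 0.0194). Igfbp2 (ID 16008), which binds IGFs outside the cell, fell to 1720.3, 1718 and 1453 on Day 3, against 2670.2, 3450.2 and 3418 on Day 2 (log2 change -0.96, SE 0.14, adjusted p = 0.0321). Of these, Igf1 and Igfbp2 were the members that passed among 19 genes of TGF-beta, BMP and IGF signalling (median 0.10), of which 3 rose and 1 fell without Day 2 replicate 2.

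In the Notch pathway, which holds back myogenic differentiation, 2 of 8 genes fell and 0 rose in limma (1 higher and 2 lower unadjusted), with a median of -0.05, and 1 rose and 2 fell without Day 2 replicate 2. The receptor gene Notch3 (ID 18131) was 163, 172 and 138 on Day 3, against 326, 292 and 285 on Day 2 (log2 change -0.94, SE 0.12, adjusted p = 0.0264). The ligand gene Dll1 (ID 13388) was 99.96, 86.0 and 90.1 on Day 3, against 174, 134 and 156 on Day 2 (log2 change -0.74, SE 0.13, adjusted p = 0.0464). Neither overlapped between the days, whereas the receptors Notch1 (log2 change -0.05, adjusted p = 0.887) and Notch2 (log2 change 0.01, adjusted p = 0.995) and the target Hes1 (log2 change -0.04, adjusted p = 0.936) were close to 0. Dtx4, of the Deltex family of ubiquitin ligases, was chosen after its values were seen and fell with both of its probe sets (log2 change -1.18, adjusted p = 0.0261). Heyl, a Notch target listed among the markers of myoblasts, stayed below the level filter on both days and was not tested. It read 9.67 ± 0.50 on Day 3 and 35.1 ± 9.70 on Day 2 (SD, n = 3 each).

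Genes of the ATF4 and amino acid response, by which cells answer phosphorylation of the initiation factor eIF2, included 3 rises and 0 falls among 25 in limma (15 higher and 0 lower at an unadjusted p under 0.05), with a median of 0.38, and 8 rises without Day 2 replicate 2. The promoter of Atf3, a transcription factor that ATF4 switches on, is shown because it holds the composite element of the pathway. It lies on the minus strand at chr1:191183334-191183583 of GRCm38.p6, again the 250 bases before the RefSeq start. Capitals mark the element TGATGNAA, here on the other strand, which overlaps an E-box.
Atf3: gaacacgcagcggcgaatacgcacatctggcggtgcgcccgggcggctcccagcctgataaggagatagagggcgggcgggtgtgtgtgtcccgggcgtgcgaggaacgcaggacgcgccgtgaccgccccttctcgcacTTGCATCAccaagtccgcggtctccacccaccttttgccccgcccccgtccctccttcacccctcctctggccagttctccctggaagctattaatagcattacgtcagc
This element was found in 6 of 21 promoters of the list (28.6%), against 2.40% of genes tested and 3.91% of all promoters. It was held by 1 of the 3 genes of the list that rose, and by 1 of 58 promoters among all genes that rose (1.72%).

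Atf3 (ID 11910) itself was 662, 678 and 672 on Day 3, against 304, 298 and 374 on Day 2 (log2 change 1.05, SE 0.12, adjusted p = 0.0194). Trib3 (ID 228775), a pseudokinase that limits the response, was 1687, 1719 and 1659 on Day 3, against 889.8, 849 and 969 on Day 2 (log2 change 0.91, SE 0.10, adjusted p = 0.0194), and both its probe sets passed. Sesn2, an inhibitor of mTORC1 that is also a p53 target, was 169.5, 159 and 159.5 on Day 3, against 114, 109 and 95.5 on Day 2 (log2 change 0.62, SE 0.11, adjusted p = 0.0479). In each of them the spread within a day was small beside the difference.

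A pair of genes in no list, chosen after their values were seen, also belong to the control of translation. Ppp1r15a (ID 17872), the phosphatase subunit GADD34 that reverses the phosphorylation of eIF2, was 788, 899 and 893 on Day 3, against 358, 376 and 350.2 on Day 2 (log2 change 1.25, SE 0.11, adjusted p = 0.00919). Gtpbp2, a GTPase used in the rescue of stalled ribosomes, was 795, 780.2 and 743 on Day 3, against 389, 398 and 374 on Day 2 (log2 change 1.00, SE 0.10, adjusted p = 0.0192), and all 3 of its probe sets passed. The members of the list that did not pass included the biosynthetic enzyme genes Asns (log2 change 0.27, adjusted p = 0.291) and Psat1 (log2 change 0.20, adjusted p = 0.422), the amino acid carrier gene Slc7a5 (log2 change 0.38, adjusted p = 0.274) and Atf4 itself (log2 change 0.29, adjusted p = 0.234). Chaperones of the endoplasmic reticulum had a median of 0.09 and 0 of 19 passed in limma (2 higher and 1 lower unadjusted), with 0 higher and 1 lower without Day 2 replicate 2.

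Of 25 immediate early and serum response genes, 4 rose and 1 fell, with a median of 0.25, and 9 rose and 2 fell without Day 2 replicate 2. Besides Atf3, they were Ccn1, Ccn2 and Egr1. Ccn1 (ID 16007), a matrix-associated signalling protein, was 1229, 1406 and 1301 on Day 3, against 680.3, 635 and 571 on Day 2 (log2 change 1.06, SE 0.12, adjusted p = 0.0194). Ccn2 (ID 14219), of the same family, was 2278, 2582 and 1964 on Day 3, against 1158, 887 and 731 on Day 2 (log2 change 1.31, SE 0.19, adjusted p = 0.0291). Neither of the pair overlapped between the days. Egr1, a zinc finger transcription factor, was 2676, 2601 and 2508 on Day 3, against 1434, 1640.0 and 1198 on Day 2 (log2 change 0.88, SE 0.13, adjusted p = 0.0337). Klf10, a repressor induced by TGF-beta, was the member that fell, with 177, 188 and 174 on Day 3, against 279, 280.1 and 316 on Day 2 (log2 change -0.70, SE 0.11, adjusted p = 0.0337). The days did not overlap in either of these.

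The 10 largest rises also held genes that are in none of the lists. Trp63 (ID 22061), a transcription factor of the p53 family, was 148, 197 and 176 on Day 3, against 51.8, 34.8 and 36.3 on Day 2 (log2 change 2.10, SE 0.18, adjusted p = 0.00919), and its second probe set had a log2 change of 1.44 (adjusted p = 0.0507). Limch1 (ID 77569), which associates with actin and myosin, was 208, 211 and 213 on Day 3, against 58.6, 84.6 and 36.5 on Day 2 (log2 change 1.90, SE 0.27, adjusted p = 0.0291). P2rx3 (ID 228139), an ATP-gated ion channel best known in sensory neurons, was 112, 122 and 115 on Day 3, against 34.8, 41.1 and 43.6 on Day 2 (log2 change 1.55, SE 0.12, adjusted p = 0.00919). In all of them the Day 2 intensities lay below 100 and the Day 3 intensities above it.

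C1s1, Fbln7, Hsd11b1 and Ranbp3l made up the rest of the 10. C1s1 (ID 50908), a protease of the complement cascade, was 265, 294 and 211 on Day 3, against 114, 77.4 and 70.3 on Day 2 (log2 change 1.57, SE 0.21, adjusted p = 0.0264). Fbln7 (ID 70370), a fibulin of the extracellular matrix, was 589.9, 487 and 359.9 on Day 3, against 205, 194 and 112 on Day 2 (log2 change 1.51, SE 0.27, adjusted p = 0.0464). For both, Day 2 replicate 3 was the lowest of all arrays. Hsd11b1 (ID 15483), the enzyme that regenerates active glucocorticoid, was 204, 199.93 and 228 on Day 3, against 86.2, 74.9 and 67.8 on Day 2 (log2 change 1.47, SE 0.13, adjusted p = 0.00919). Ranbp3l (ID 223332), a nuclear export factor of Smad proteins, was 154, 161 and 139 on Day 3, against 69.9, 41.6 and 55.1 on Day 2 (log2 change 1.47, SE 0.19, adjusted p = 0.0261). The 4 were 2.77-fold to 2.98-fold higher, and none overlapped.

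In the extracellular matrix, 1 of 39 genes rose and 1 fell, with a median of 0.08, and 4 rose and 6 fell without Day 2 replicate 2. Col5a3 (ID 53867), a chain of type V collagen, was 34.9, 57.2 and 51.8 on Day 3, against 144, 102 and 126 on Day 2 (log2 change -1.39, SE 0.21, adjusted p = 0.0337). Dcn (ID 13179), decorin, a proteoglycan that binds collagen, was 4090.3, 3725 and 4217 on Day 3, against 2528, 2746 and 2359 on Day 2 (log2 change 0.66, SE 0.11, adjusted p = 0.0433). The fibroblast markers, of which Dcn is one, had a summed intensity of 21958 to 24233 on Day 3 and 22561 to 24170 on Day 2, so the whole list overlapped between the days while Dcn did not. Col1a1 (log2 change -0.34, adjusted p = 0.482) and Col3a1 (log2 change -0.10, adjusted p = 0.778), chains of the major fibrillar collagens, did not pass.

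Ptgs2, the inducible cyclooxygenase listed with 9 chemokine and cytokine genes, was 268, 235 and 239 on Day 3, against 132, 86.9 and 111 on Day 2 (log2 change 1.19, SE 0.16, adjusted p = 0.0282), and Dhcr7, which takes the last step of cholesterol synthesis, was 296, 274 and 354 on Day 3, against 157, 168 and 132 on Day 2 (log2 change 1.01, SE 0.14, adjusted p = 0.0291). Dhcr7 stood against the rest of its list, in which 17 of 22 means were lower on Day 3 (median -0.14). Without Day 2 replicate 2, 2 chemokine and cytokine genes rose and 0 fell, and of 23 in the cholesterol and fatty acid list 2 rose and 3 fell. Eda2r, a receptor of the ectodysplasin family, joined Sesn2 as the second p53 target of 16 that rose (log2 change 0.73, adjusted p = 0.0474), and 5 did without Day 2 replicate 2. No member passed in limma among genes of the proteasome (0 of 29, 5 higher and 0 lower unadjusted), lysosome and autophagy (0 of 25, 3 and 1), NRF2 defence (0 of 14, 2 and 2), hypoxia (0 of 14, 2 and 1), matrix proteases (0 of 14, 3 and 3), muscle splicing regulators (0 of 13, 4 and 2), the dystrophin complex (0 of 10, 4 and 0), the interferon response (0 of 9, 2 and 1) and the clock (0 of 8, 2 and 0). Without Day 2 replicate 2, the proteasome had 2 rises and 0 falls, lysosome and autophagy 1 and 0, NRF2 defence 1 and 0, hypoxia 2 and 2, matrix proteases 0 and 2, splicing regulators 3 and 1, the dystrophin complex 3 and 0, and the clock 1 and 1. In that fit, 0 of 10 interferon genes passed in limma.

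The cultures had the defining markers of myotubes on both days. All 10 markers of skeletal myotubes were at 100 or above on Day 3 and Day 2, with a summed intensity of 59406 to 68716 on Day 3 and 52021 to 56240 on Day 2, and none passed in limma (5 higher and 0 lower unadjusted). Markers of proliferating cells summed to 1042 to 1275 on Day 3 and 1911 to 2661 on Day 2 over 5 genes, without overlap, and 0 of the 4 tested passed in limma (4 lower and 0 higher at an unadjusted p under 0.05). Those of undifferentiated or reserve myoblasts overlapped (7333 to 8589 and 6932 to 8080), with Pax7, Pax3, Calcr and Chodl near background. Of these 11 genes 6 were tested, with 3 higher and 1 lower at an unadjusted p under 0.05. In limma 1 passed, the receptor tyrosine kinase inhibitor Spry1 (log2 change 1.15, adjusted p = 0.0194). Adipocyte markers summed to 1586 to 2486 on Day 3 and 975 to 1237 on Day 2. There Lpl, lipoprotein lipase, which muscle also makes, passed (log2 change 1.06, adjusted p = 0.0441). Adipoq, Fabp4, Cidec, Lep and Retn were near background on both days. Pparg (84.6 on Day 3 and 94.2 on Day 2) and Cebpa (66.8 and 49.3) were above background. Both lay below the level of 100 and were not tested.

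Markers of smooth muscle summed to 9110 to 9792 on Day 3 and 7404 to 8949 on Day 2, with Myh11, Cnn1, Lmod1 and Myocd near background. The member that passed was Acta2 (log2 change 0.95, adjusted p = 0.0433), by its dim probe set, while its bright one read 8082 on Day 3 and 7187 on Day 2 (log2 change 0.17, adjusted p = 0.488). Markers of osteoblasts or chondrocytes summed to 128 to 167 on Day 3 and 170 to 212 on Day 2. The part of other cell types in the changes above was not tested.

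The course before and after the interval was read from the other time points. Over the changed probe sets, the median log2 intensity of rises relative to Day 2 was -1.70 on Day 1, against 1.00 on Day 3, 1.21 a day later and 1.33 at the end of the course. For falls it was 1.32, -1.04, -1.50 and -2.22 at those time points. The probe sets were chosen for Day 3 against Day 2, so the Day 3 values are set by the choice and the other days share the Day 2 arrays. These medians are therefore descriptions.

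Single genes followed different courses. From Day 1 onwards, the daily means of Cacna1s were 83.1 ± 28.9, 687 ± 95.3, 1358 ± 199.99, 1162 ± 164 and 866 ± 173 (SD, n = 3 each), with its highest mean on Day 3. Igf1 was 2.85 ± 0.02, 42.0 ± 6.71, 199 ± 24.4, 258 ± 140.2 and 609.6 ± 225 on the same days, with its highest mean on the last of them. Notch3 began at 159 ± 8.63 on Day 0 and then gave 327 ± 15.5, 301 ± 22.2 and 158 ± 17.5 on the 3 days after it, so that its fall returned it to the Day 0 level. Trib3, high on Day 0 at 1805 ± 121, was 13.4 ± 1.55 after 6 hours and 523 ± 131, 903 ± 61.2 and 1688 ± 29.8 on the same 3 days.

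**Figure D4:**
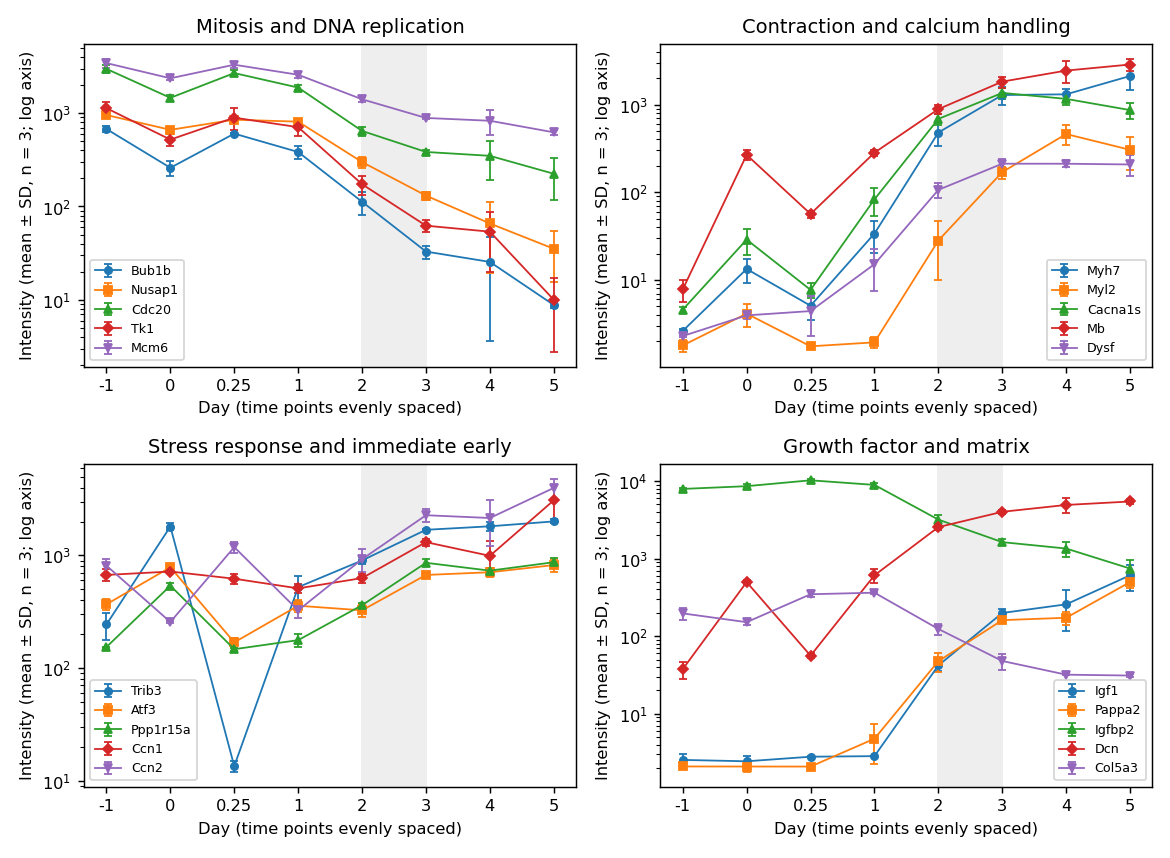
Mean intensity with SD of 3 arrays (y axis, log scale) at the 8 time points (x axis, evenly spaced), for 5 genes that passed in each of 4 groups, with the interval from Day 2 to Day 3 shaded. Mitosis and replication genes go on falling to Day 5 (Bub1b 8.80 ± 0.55), and Cacna1s has its highest mean on Day 3 (1358 ± 199.99).

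The last interval of the course, Day 4 to Day 5, has the same length and shares no array with Day 3 and Day 2. Of the 85 probe sets that rose on Day 3, 64 also had a higher mean log2 intensity on Day 5 than on Day 4, and of the 68 that fell, 61 had a lower one, while 43.2% of all probe sets tested were higher on Day 5. The median log2 change of the rises was 0.17 in the last interval against 1.00 in the earlier one, and that of the falls was -0.64 against -1.04. The median over all probe sets tested was -0.04 in the last interval. The members were selected on the earlier interval, so its medians are set by the choice.

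A direct test of the difference between the intervals over 12 arrays found 0 of 12678 probe sets in limma (0% called, 1631 at an unadjusted p under 0.05, lowest adjusted p 0.101). With array weights estimated by limma 1793 passed, and without Day 2 replicate 3 the count was 1. Myl2 shows the widest gap among the named genes, with a log2 change of 2.77 between Day 3 and Day 2, and -0.66 in the last interval (adjusted p of the difference 0.148). Egr1 went the other way, at 0.88 and 1.66 (adjusted p of the difference 0.208).

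**Figure D5:**
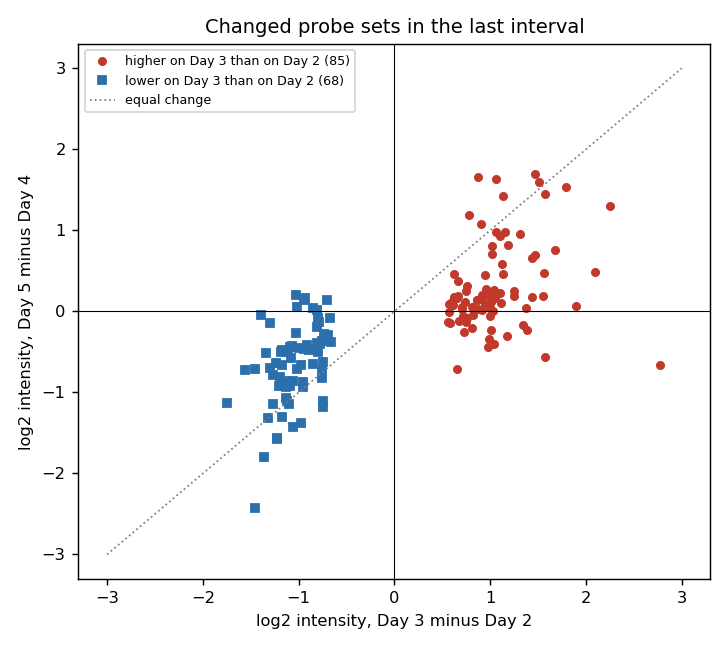
Log2 change from Day 4 to Day 5 (y axis) against that from Day 2 to Day 3 (x axis) for the 85 probe sets that rose (red circles) and the 68 that fell (blue squares), with a dotted line at equal change. Falls lie mostly in the lower left (61 of 68), and rises lie mostly between 0 and the dotted line, with a median of 0.17.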

How the data were processed

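RNA of 24 C2C12 samples was measured on Affymetrix mouse arrays, and the 3 Day 3 and 3 Day 2 arrays were compared. The deposited values are intensity on a linear scale. By the study's methods, the authors computed them with GC-RMA, returned them to the linear scale and set the 2% trimmed mean of every array to 150. MAS5 is also named in the submitters' processing notes, with no role given. No 2 arrays held identical values, and no source used here states whether replicates were separate cultures. The p-values then measure the spread between arrays only, and this may be technical. The number of arrays limits the precision.

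The 64 control probe sets were left out. Values were log2 transformed and fitted with limma 3.58.1 in R 4.3.3, without covariates, over the probe sets whose mean reached 100 on either day. The difference from the last interval was fitted over 12 arrays. Scripts were tested on simulated data. Genes were taken from the array's annotation (34945 probe sets with 1 gene, 932 with several and 9160 with none listed), of which 34741 matched a RefSeq table, and promoter sequences are those of RefSeq (GRCm38.p6). Genes named are the 10 largest rises and falls that passed without overlap, up to 4 members of each list described (the 2 lowest adjusted p in each direction), and muscle reference genes; genes beyond this rule were named after their values were seen. The members and lists were chosen with earlier results of these data known.

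Alternatives were a fit to all 24 arrays, a replicate block, levels of 200 and none, quantile normalization, a floor of 50, an intensity trend in the prior, array weights, the probe set of highest mean, a 2-fold threshold and leaving out each array. Deviations of arrays with the same replicate number had an r of -0.55, -0.49 and 0.37, which does not settle whether the numbers pair the arrays.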

Additional observations from a re-analysis of the deposited data

How the results depend on the processing

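All 153 probe sets kept the direction of their change under every alternative in which they were tested. The alternatives reuse the same arrays, so this is no independent support. Their number did not hold, as 85 were higher and 68 lower with all 6 arrays. It was 371 higher and 247 lower in a fit to all 24 arrays, 6 and 5 with no level filter, 1141 and 916 with array weights, and 41 and 39 with a 2-fold threshold as well. With a level of at least 200, 39 were lower, and with quantile normalization 111 were. The counts ran between 0 and 510 for rises and between 0 and 603 for falls when each array was left out, the highest being without Day 2 replicate 2 and the lowest without Day 3 replicate 2. With the replicate number as a block, 2 were higher and 0 lower in limma (1273 at an unadjusted p under 0.05). Whether the numbers pair the arrays is not known.

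The 15 mitosis genes that fell were 0 with the replicate block, 7 with a level of at least 200, 0 with no level filter, 38 with array weights and 0 to 37 with an array left out. The 4 DNA replication genes were 10 with all 24 arrays, 0 with the replicate block, 1 with a level of at least 200, 0 with no level filter, 9 with quantile normalization, 20 with array weights and 0 to 17 with an array left out. The count of probe sets whose change differed from that of Day 4 to Day 5 was 13 with no level filter, 1793 with array weights and 0 to 1 with an array left out. Tpm3 alone changed sign, to a log2 change of -0.26 (adjusted p = 0.254) with the probe set of highest mean. The cause of these shifts was not tested. Quantile normalization moved the median of all probe sets by less than 0.1 on the log2 scale. A signal near background limits folds of genes below 100, as for 27 of the 57 falls on Day 3 and 20 of the 67 rises on Day 2.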

Other observations

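Some of the genes that passed belong to no list and were singled out after their values were seen. Lipid uptake was represented by Cd36, the fatty acid transporter, whose intensity was 81.3, 103 and 138 on the Day 3 arrays, against 43.3, 41.1 and 37.6 on the Day 2 arrays (log2 change 1.37, adjusted p = 0.0282), with both probe sets past the threshold. The days did not overlap, and Pltp, a phospholipid transfer protein, was also higher (log2 change 0.60). Slc26a7, an anion exchanger, was 562, 604 and 713 on Day 3, against 327, 200.4 and 276 on Day 2 (log2 change 1.25, adjusted p = 0.0337). Among genes of chromatin, Hmga2 (log2 change -0.74) and Hmgb2 (log2 change -0.81) fell while H1f2, a linker histone gene, rose (log2 change 0.62). Gap43, a protein of growing neurites, fell to 132, 119 and 106 on Day 3, against 211, 279.9 and 360 on Day 2 (log2 change -1.22, adjusted p = 0.0393).

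In the 250 bases before the start, the E-box CANNTG, the element bound by myogenic regulators, stood in 46 of 58 promoters of genes that rose (79.3%) and in 19 of 49 of genes that fell (38.8%), against 59.4% of genes tested and 69.3% of all promoters. The TEAD element GGAATG, searched on both strands, stood in 14 of 58 promoters of genes that rose (24.1%) and 7 of 49 of genes that fell (14.3%). Its share was 12.2% among genes tested and 14.4% among all promoters. Base composition was not matched and no test was made, so these shares describe the windows only.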
